A study of Mus musculus with 4 samples.

Results

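Cells of the NSC (neural stem cell) line XN1 were compared directly with those of the line CN4, gene by gene. The members were all cells of the normalized single-cell tables of both lines, 3905 XN1 cells and 3448 CN4 cells, together 7353 of the 15255 cells that such tables hold for the 4 lines of the series. Both lines came from mouse 129/Sv epiblast stem cells (EpiSCs), pluripotent cells of the post-implantation epiblast that had been kept with XAV939 (XAV), activin and FGF2 before neural culture, and both grew in a serum-free medium that held EGF and FGF2 (each at 10 ng/ml). XN1 was derived and kept with 10 µM XAV939, a Wnt signal inhibitor, and CN4 with 2 µM CHIR99021 (CHIR), a Wnt signal activator. The question was how the transcriptomes of NSC lines differ when the same stem cells become neural under opposite Wnt signal inputs.

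Each line was 1 derivation and was sequenced as 1 library, so the agent, the derivation and the library cannot be told apart, and no test across lines was possible. The lines came from separate derivation series, the XAV for XN1 came from a supplier whose product formed crystals in the medium at this concentration, and the lines preferred different substrates (laminin for XN1, gelatin for CN4). The inhibitor Y27632 promoted the growth of both. Cells were dissociated, preserved in CellCover, stored in the cold and captured on BD Rhapsody beads, and a value here is a number of reads, not of molecules. The XN1 cells held 19271688 reads in all with a median of 4637 reads and 2257 genes per cell, and the CN4 cells 22947874 reads with a median of 6572 reads and 2824 genes. Levels are given as CPM, the usual scaling of counts to a fixed total, of the summed reads of a line with an exact Poisson 95% interval, and capture is the share of cells with at least 1 read of a gene with an exact binomial 95% interval. Both intervals cover counting error only. KN1, derived without either agent, and XN4, derived with XAV of another supplier, are given beside some results as values.

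XAV blocks tankyrase, the enzyme that marks Axin for destruction, so Axin and the complex that destroys β-catenin are stabilized. CHIR blocks the kinase GSK3 within that complex, so β-catenin accumulates and acts with TCF/LEF factors on target genes. In the embryo Wnt signals are among the cues that set the anteroposterior address of the neural plate. That address is read from transcription factors, with *Otx2* in forebrain and midbrain, *En2* and *Gbx2* around the midbrain-hindbrain boundary, and *Hox* genes of rising paralog group along hindbrain and spinal cord.

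Of the 13583 genes listed in both normalized tables, 9924 were captured in at least 5% of the cells of XN1 or CN4 and were compared. At least 2-fold higher in CN4 were 696 genes (7.01% of those compared), and 754 (7.6%) were at least 2-fold higher in XN1. At 4-fold, 186 genes (1.87%) were higher in CN4 and 254 (2.56%) in XN1. The median log2 ratio, CN4 over XN1, was 0.12, and 90% of genes lay between -1.36 and 1.18. When ratios were centred on that median, the counts were 558 and 884, so the share of calls that were higher in CN4 went from 48.0% to 38.7%. Ratios below are not centred and can be read against the median of 0.12.

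**Figure D1:**
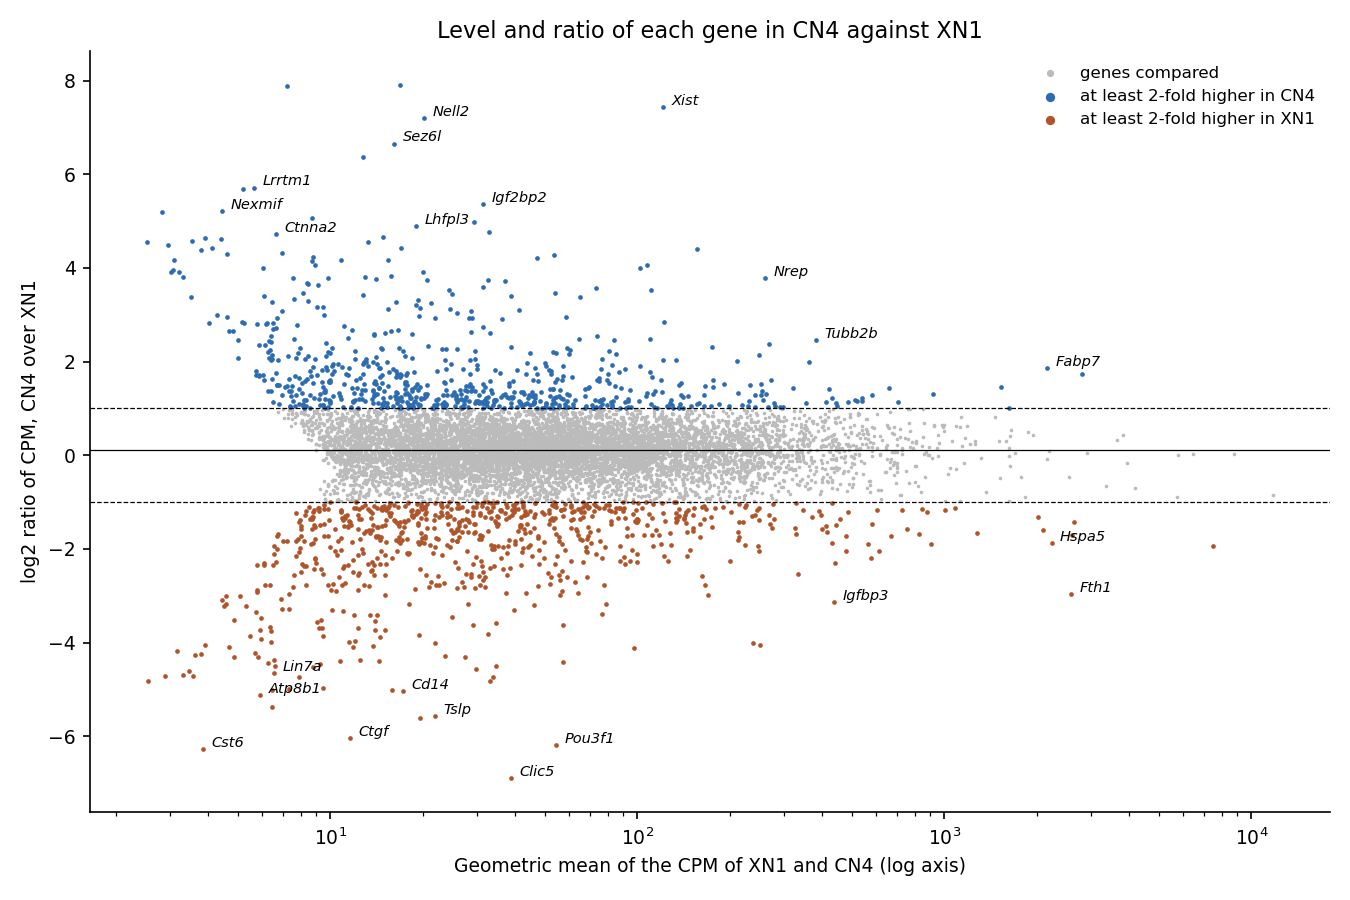
Each point is one of the 9924 genes compared, with the geometric mean of its CPM in XN1 and CN4 on a log x axis and its log2 ratio, CN4 over XN1, on the y axis. Blue points are at least 2-fold higher in CN4 and brown points at least 2-fold higher in XN1, with *Xist* at 7.43 and *Clic5* at -6.89.

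The *Hox* genes divided the lines by cluster as well as by paralog group. They were counted in the tables of all reads, which hold 14452 cells of XN1 (median 5981.5 reads) and 18157 of CN4 (median 9173 reads), because most *Hox* genes are missing from the normalized XN1 table. Of 39 *Hox* genes, 20 were captured in at least 5% of CN4 cells and 3 (*Hoxa3*, *Hoxa4* and *Hoxa5*) in at least 5% of XN1 cells. The capture share was higher in CN4 for 34 genes and higher in XN1 for *Hoxa3* and *Hoxa4*. This count takes any difference in share, and CN4 cells held more reads. Some of the 34 rest on very few cells, such as *Hoxb13* (0 XN1 and 1 CN4 cells) and *Hoxd10* (2 and 3).

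The *Hoxb*, *Hoxc* and *Hoxd* clusters were captured in very few XN1 cells. Among their 28 genes the highest XN1 capture share was 0.0761% (*Hoxb9*), while 17 were captured in at least 1% of CN4 cells. Cells with a read of any gene of these 3 clusters were 65 of 14452 in XN1 (0.450%) and 17558 of 18157 in CN4 (96.7%), and after each cell was thinned to 3200 reads the shares were 0.257% and 91.2%. *Hoxb8*, a thoracic-level gene at chr11:96281905-96285315, was captured in 0.0415% of the cells of XN1 (95% interval 0.0152% to 0.0903%) against 74.8% in CN4 (74.1% to 75.4%). *Hoxc8* was captured in 0.0277% of XN1 and 47.9% of CN4 cells, and *Hoxd8* in 0.0208% and 21.7%. Hindbrain-level members varied in CN4, with *Hoxb3* in 0.0277% of XN1 and 44.5% of CN4 cells and *Hoxb1* in 0.00692% and 0.127%.

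Genes of the *Hoxa* cluster were captured in both lines. *Hoxa5*, which marks the cervical level, was captured in 27.8% of the cells of XN1 (27.1% to 28.5%) against 58.7% in CN4 (58.0% to 59.4%). In the normalized tables its level was 86.8 CPM (82.7 to 91.1) in XN1 and 188 CPM (183 to 194) in CN4, past 2-fold. *Hoxa7* was the *Hoxa* gene of groups 5 to 9 with the widest gap in capture, at 4.32% of XN1 and 63.1% of CN4 cells, and its level was 12.1 CPM in XN1 and 237 CPM in CN4 (log2 ratio 4.29). *Hoxa9* was captured in 0.0138% of XN1 and 9.37% of CN4 cells. In the other direction, *Hoxa4* was at 25.4 CPM in XN1 and 12.0 CPM in CN4 (log2 ratio -1.09), and *Hoxa3* at 31.0 and 19.7 CPM (-0.65). The annotated span of *Hoxa3* (chr6:52169062-52213336) contains *Hoxa4*, *Hoxa5* and *Hoxa6*, that of *Hoxc5* contains *Hoxc6*, *Hoxc8* and *Hoxc9* and overlaps *Hoxc10*, and that of *Hoxd3* contains *Hoxd4*. Introns were counted and strand use is not stated, so the assignment of reads among these neighbours is uncertain.

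**Figure D2:**
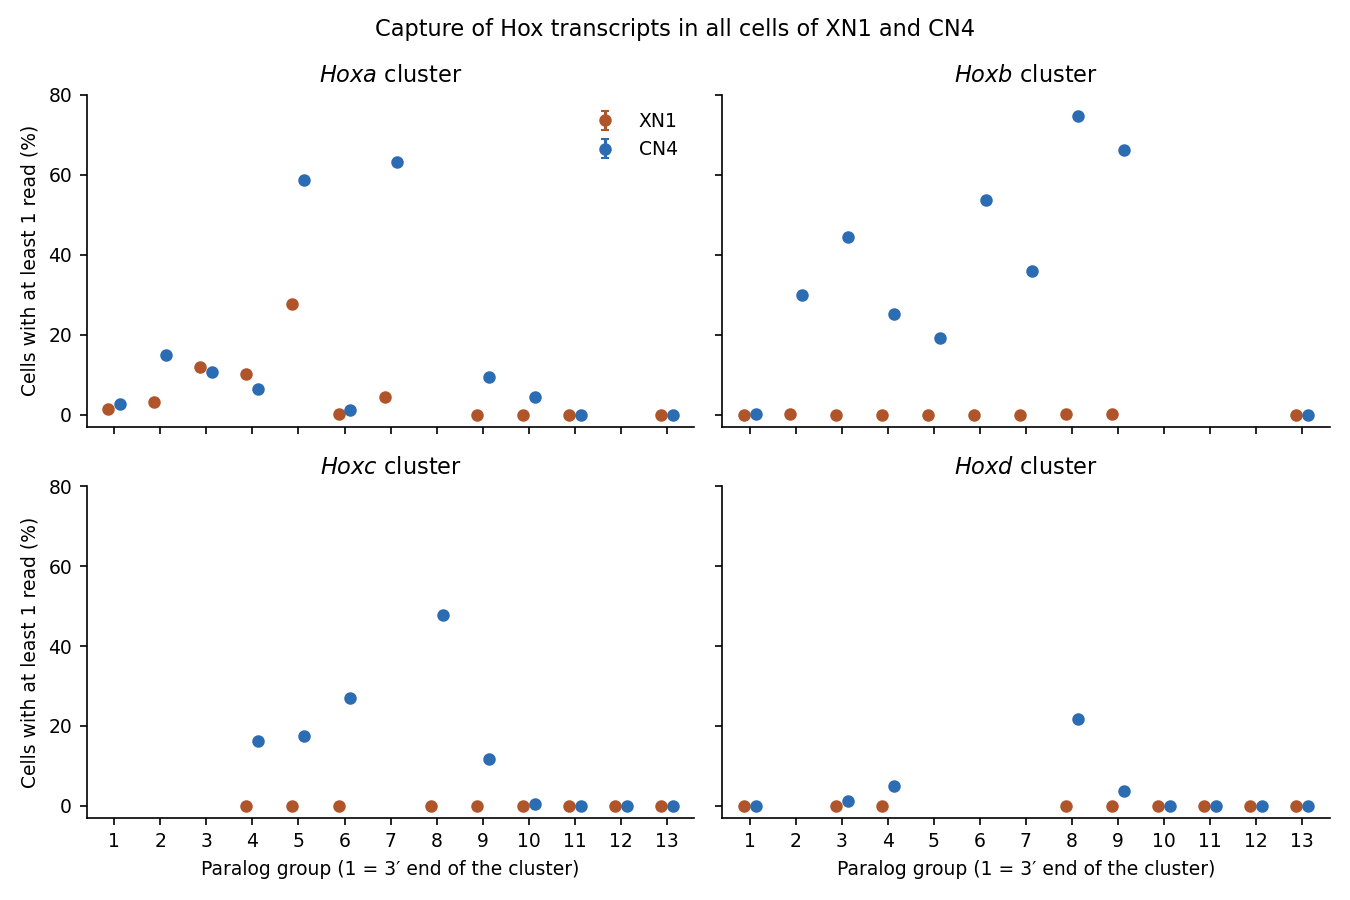
The 4 panels plot, for each *Hox* gene by paralog group on the x axis, the percentage of cells with at least 1 read in the tables of all reads, XN1 in brown and CN4 in blue, with exact binomial 95% intervals that are mostly smaller than the points. XN1 points leave the baseline in the *Hoxa* panel, up to 27.8% at group 5, while CN4 points lie above it in all 4 panels, up to 74.8% at *Hoxb8*.

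In CN4 few reads lay in paralog groups 10 to 13. Summed over groups 5 to 9, the level in the tables of all reads was 0.337 CPM in XN1 and 1011 CPM in CN4 for *Hoxb*, 0.189 and 420.2 CPM for *Hoxc*, and 94.7 and 455 CPM for *Hoxa*. Summed over groups 10 to 13, CN4 reached 8.88 CPM in *Hoxa* and 0.983 CPM in *Hoxc*. *Hoxa10* was captured in 0.0138% of XN1 and 4.39% of CN4 cells. *Hoxc10*, a lumbar-level gene, had reads in 0 of 14452 XN1 cells, which allows a share of up to 0.0208% when the limit is set at 3 counts, and in 0.523% of CN4 cells (its span overlaps that of *Hoxc5*). *Cdx2*, one of the caudal factors that switch on central *Hox* genes in the embryo, had reads in 0 cells of either line. Per cell, CN4 showed a median of 5 genes of groups 5 to 9 (3 after thinning) and XN1 a median of 0.

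Capture of *Hox* genes and *Otx2* differed between the lines, so the 250 bases before the start site are shown for *Hoxb8* (chr11:96281655-96281904, plus strand), *Hoxd8* (chr2:74704365-74704614, plus strand) and *Otx2* (chr14:48665110-48665359, minus strand, one of 4 starts), from RefSeq on GRCm38.p6. Capitals mark letters that match a searched motif on either strand, TTTATNG (Cdx) in *Hoxb8*, CTTTGAT (TCF/LEF) in *Hoxd8* and TAATCC (Otx) in *Otx2*, where it stands reversed as GGATTA.
Hoxb8: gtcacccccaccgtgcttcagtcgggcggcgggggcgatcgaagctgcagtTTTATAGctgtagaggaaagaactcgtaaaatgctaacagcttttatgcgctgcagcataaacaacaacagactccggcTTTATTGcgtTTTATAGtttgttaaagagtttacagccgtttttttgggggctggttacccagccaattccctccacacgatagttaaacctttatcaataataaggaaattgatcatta
Hoxd8: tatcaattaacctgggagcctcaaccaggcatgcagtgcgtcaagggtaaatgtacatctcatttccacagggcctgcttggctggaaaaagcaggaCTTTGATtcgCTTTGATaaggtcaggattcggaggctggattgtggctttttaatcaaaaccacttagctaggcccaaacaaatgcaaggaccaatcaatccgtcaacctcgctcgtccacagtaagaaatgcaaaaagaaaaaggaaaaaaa
Otx2: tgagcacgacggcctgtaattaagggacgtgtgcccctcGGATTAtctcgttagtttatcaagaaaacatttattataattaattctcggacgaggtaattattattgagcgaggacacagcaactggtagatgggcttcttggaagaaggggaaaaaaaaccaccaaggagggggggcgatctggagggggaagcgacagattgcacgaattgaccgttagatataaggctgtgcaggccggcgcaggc
The windows hold 3, 2 and 1 matches, and only starts with a match were shown. The other *Otx2* starts held no TAATCC in their 250 bases. Shares below were counted over each promoter window in full, not cut to 250 bases. A match describes letters only and is not shown to be a site. Over all genes compared that have a promoter in the table (7877 of 9924), CTTTGAT was found in 3.06%, against 3.29% of genes higher in CN4 and 2.77% of those higher in XN1. For TTTATNG the shares were 7.59%, 8.33% and 9.86%, and for TAATCC 6.55%, 7.17% and 5.88%. Of all 32851 windows in the table, 3.73% held CTTTGAT, 10.9% TTTATNG and 7.06% TAATCC.

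Members of the list of anterior brain factors differed in both directions. Of 20 members, 4 were listed in the normalized table of XN1 alone, 4 in that of CN4 alone, 3 in both and 9 in neither. The 4 of XN1 were *Otx1*, *Otx2*, *Six3* and *Barhl2*. *Otx2*, which specifies forebrain and midbrain, was captured in 10.1% of the cells of XN1 (9.58% to 10.6%) against 0.0496% in CN4 (0.0227% to 0.0941%). Its relative *Otx1* was captured in 14.9% and 0.0275%. Cells with either gene made up 23.1% of XN1 and 0.0771% of CN4 (14 cells), and 13.8% and 0.0112% after thinning. *Six3* and *Barhl2*, of the anterior forebrain and diencephalon, were captured in 1.53% and 1.71% of XN1 cells and in 0.0606% and 0.0826% of CN4 cells.

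The zinc finger genes of the *Zic* family were on the list of anterior factors, and *Zic1*, *Zic2* and *Zic5* were higher in CN4. These genes also act in dorsal neural tube and spinal cord. *Zic1* was captured in 0.104% of XN1 and 66.0% of CN4 cells, *Zic5* was at 18.2 CPM in XN1 and 64.6 CPM in CN4 (log2 ratio 1.83), and *Zic2* at 4.57 and 22.4 CPM (2.29). *Zic2* and *Zic5* were the only members of the 20-gene anterior list that were both listed in the 2 normalized tables and captured widely enough to be compared.

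Genes of the midbrain-hindbrain boundary split in both directions. *En2*, a midbrain and cerebellar factor, was at 47.7 CPM (44.7 to 50.9) in XN1 and 3.05 CPM (2.38 to 3.85) in CN4, a log2 ratio of -3.97, and *Cnpy1*, an FGF signal modulator of the boundary and the neighbour of *En2* on chromosome 5, was at 16.0 and 0.959 CPM (-4.06). *Gbx2*, which marks the hindbrain side, was at 5.29 CPM in XN1 and 50.8 CPM in CN4 (3.26). *En1* was at 75.5 CPM in XN1 and 82.7 CPM in CN4 (0.13). Of the 14 list members, 6 were compared. Of these, 1 was at least 2-fold higher in CN4 and 2 in XN1 (7.01% and 7.6% of all genes compared). *Fgf8* and *Wnt1*, the signals of the boundary, were captured in at most 0.121% of cells of either line.

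Genes of 3 TALE homeodomain proteins that bind DNA with Hox proteins were higher in CN4. *Meis2* was at 28.3 CPM in XN1 and 126 CPM in CN4 (log2 ratio 2.15), *Pbx3* at 37.6 and 157 CPM (2.06), and *Meis1* at 42.2 and 133 CPM (1.66). Of 7 cofactors compared these 3 were at least 2-fold higher in CN4 and 0 in XN1 (7.01% and 7.6% of all genes compared). The other 4 were within 2-fold, among them *Pbx2* (0.03), and the list median was 0.85.

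Most Wnt target and feedback genes past 2-fold were higher in CN4. Of 24 list members 16 were compared, 8 were at least 2-fold higher in CN4 and 2 in XN1 (7.01% and 7.6% of all genes compared). The list median was 0.70. *Axin2*, a scaffold of the destruction complex and a widely used readout of β-catenin activity (chr11:108920349-108950783), was at 20.9 CPM (18.9 to 23.1) in XN1 and 94.9 CPM (91.0 to 99) in CN4, a log2 ratio of 2.18. It was captured in 7.81% of XN1 and 35.3% of CN4 cells, and in 5.50% and 22.9% after thinning. The feedback inhibitor *Nkd1* was at 11.7 and 47.5 CPM (2.02), *Znrf3*, which removes Wnt receptors, at 38.4 and 93.9 CPM (1.29), and the R-spondin receptor *Lgr5* at 6.12 and 60.8 CPM (3.31). At least 1 of these 4 genes, all taken from the members higher in CN4, was captured in 26.7% of XN1 and 75.1% of CN4 cells (16.5% and 46.6% after thinning). For the whole list of 24 the shares were 98.9% of XN1 and 98.2% of CN4 cells (97.8% and 92.7% after thinning). The median number of list genes per cell was 2 in XN1 and 4 in CN4, or 2 in each after thinning.

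The other 4 of the 8 list members higher in CN4 encode secreted proteins of the antagonist families. *Wif1*, which binds Wnt ligands, was at 0.830 CPM in XN1 and 17.3 CPM in CN4 (log2 ratio 4.38), *Dkk3* at 2.18 and 36.5 CPM (4.07), *Sfrp1* at 0.830 and 12.5 CPM (3.91) and *Sfrp2* at 6.59 and 41.8 CPM (2.67). *Lef1* and *Tcf7*, which encode nuclear partners of β-catenin and are themselves targets, were higher in XN1, *Lef1* at 13.8 CPM against 1.48 (-3.21) and *Tcf7* at 25.3 against 6.36 (-1.99). *Ccnd1*, a cyclin often listed as a Wnt target, was at 2499 CPM in XN1 and 1344 CPM in CN4 (-0.89), short of 2-fold. *Sp5* was captured in 3.90% of XN1 and 1.66% of CN4 cells, and *Apcdd1* in 0.131% and 4.03%.

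The lines without CHIR did not share one level of these genes. *Axin2* was at 17.1 CPM in KN1, 20.9 CPM in XN1 and 3.01 CPM in XN4. *Lgr5* was at 109 CPM in KN1, above the 60.8 CPM of CN4, and at 0.265 CPM in XN4. KN1 cells held a median of 833 genes and the pipeline settings for KN1 are not given in the sources used here, so its values are only placed beside the others.

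Most members of the destruction complex and TCF list were within 2-fold, as were most of all genes compared (14.6% were past it). Of 20 members, all compared, 2 were at least 2-fold higher in CN4 and 1 in XN1, and the median was 0.23. Over all genes compared the shares were 7.01% and 7.6%. *Gsk3b*, the target of CHIR, was at 485 CPM in XN1 and 660.1 CPM in CN4 (log2 ratio 0.45), *Tnks*, the target of XAV, at 98.7 and 103 CPM (0.07), *Ctnnb1*, which encodes β-catenin, at 823 and 1109 CPM (0.43), and *Axin1* at 34.4 and 42.8 CPM (0.32). Past 2-fold were the co-repressor genes *Tle3* (1.55) and *Tle4* (-1.26) and the APC-binding *Amer1* (1.18). Of 14 Wnt ligand and receptor genes compared, *Fzd10* was higher in CN4 (5.66 and 75.3 CPM, 3.74), and *Fzd9* (145 and 24.0 CPM, -2.59) and *Wnt5a* (225 and 89.6 CPM, -1.33) were higher in XN1.

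Along the dorsoventral axis the 3 ventral factors compared, of 10 on the list, were within 2-fold, while other factors of the axis differed in both directions. *Olig2*, the factor of the motor neuron and oligodendrocyte progenitor domain, was at 890.2 CPM (877 to 904) in XN1 and 896 CPM (884 to 908) in CN4, and was captured in 86.7% and 84.8% of cells. *Olig1* was at 929 and 892 CPM and *Nkx2-2* at 30.9 and 23.1 CPM. Of these 3 ventral factors compared, 0 passed 2-fold in either direction. *Dbx2*, of the intermediate progenitor domains, was at 6.90 CPM in XN1 and 65.8 CPM in CN4 (log2 ratio 3.25) and *Irx1* at 14.3 and 51.0 CPM (1.83), while *Irx3* was at 62.3 and 29.0 CPM (-1.10) and *Pax6* at 45.7 and 45.9 CPM (0.01). The dorsal factor *Pax3* was captured in 0.131% of XN1 and 17.1% of CN4 cells. The floor plate genes *Foxa2* and *Shh* were captured in 0.111% and 0.0692% of XN1 cells and in 5.63% and 2.39% of CN4 cells.

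Genes of the Hedgehog pathway differed in both directions. The transcription factor genes *Gli2* (3.06 and 13.6 CPM in XN1 and CN4, log2 ratio 2.15) and *Gli3* (31.1 and 68.2 CPM, 1.13) and the co-receptor gene *Boc* (11.3 and 30.2 CPM, 1.42) were higher in CN4, although the *Gli3* ratio was 0.60 among dividing cells. The co-receptor genes *Gas1* (822 and 225 CPM, -1.87) and *Cdon* (79.1 and 12.5 CPM, -2.66) were higher in XN1. The direct targets *Gli1* and *Hhip* were captured in 0.0208% and 0.256% of XN1 cells and in 2.09% and 6.85% of CN4 cells.

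Both lines carried the markers of neural progenitors, and those that passed 2-fold over all cells were higher in CN4. *Sox2*, which maintains neural stem cells, was captured in 62.2% of XN1 and 83.9% of CN4 cells (305 and 584 CPM, log2 ratio 0.94), and *Nes*, the intermediate filament nestin, in 65.5% and 78.8% (372 and 514 CPM, 0.46). Of 15 progenitor markers compared 6 were at least 2-fold higher in CN4 and 0 in XN1 (7.01% and 7.6% of all genes compared), with a median of 0.80. The 6 were *Hes5* (10.3 and 77.8 CPM, 2.92), the radial glia gene *Fabp7* (1136 and 4117 CPM, 1.86), the glutamate transporter gene *Slc1a3* (922 and 2552 CPM, 1.47), *Sox21* (75.8 and 162 CPM, 1.09), *Notch1* (208 and 426 CPM, 1.03) and *Sox3* (95.9 and 195 CPM, 1.02). Of 10 other settings, the ratio was under 2-fold in 6 for *Sox3*, 4 for *Notch1* and 4 for *Sox21*. Among nondividing cells 5 of the markers were at least 2-fold higher in CN4 and 1, *Prom1* (-1.05), in XN1 (8.51% and 7.11% of all genes compared). *Sox1*, a classical marker of the neural plate, was captured in 0.0277% of XN1 and 30.1% of CN4 cells.

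Markers of other cell types were sparse or mixed. For scale, 7.01% of all genes compared were at least 2-fold higher in CN4 and 7.6% in XN1. Of 8 epiblast markers 0 were captured in enough cells to be compared, and *Nanog* was captured in 0.187% of XN1 and 0.215% of CN4 cells. The mesoderm gene *Msgn1* and the crest gene *Foxd3* had reads in 0 cells of either line, while *Foxc1*, the 1 mesoderm marker compared, was at 70.2 CPM in XN1 and 57.7 CPM in CN4. Of 5 oligodendrocyte precursor markers compared, *Pdgfra* was higher in XN1 (33.3 CPM in XN1 and 4.53 CPM in CN4, log2 ratio -2.88) and *Bcas1* in CN4 (21.5 and 47.3 CPM, 1.14). Of 8 astrocyte markers compared, *Clu* was higher in XN1 (46.4 and 4.36 CPM, -3.41), and *Aldoc* (127 and 270 CPM, 1.09) and *Gja1* (94.3 and 202 CPM, 1.10) were higher in CN4, although *Aldoc* was under 2-fold in 4 of 10 other settings and *Gja1* in 2. Of 4 neuron markers compared, *Dcx* was higher in XN1 (27.6 and 12.2 CPM, -1.18), and the RNA-binding gene *Elavl4* (0.882 and 21.8 CPM, 4.63) and *Snap25* (12.3 and 29.2 CPM, 1.25) were higher in CN4. The other members of these 3 lists that were compared were within 2-fold. Of 8 crest markers 2 were compared, while 3 were listed in the normalized table of CN4 alone and 0 in that of XN1 alone. Of the 2 compared, *Ets1* was at 43.9 and 60.3 CPM and *Mitf* was higher in XN1 (20.2 and 9.54 CPM, -1.08). The *Mitf* ratio was -0.94 among nondividing and -0.88 among dividing cells. *Gfap* was captured in 3.38% of XN1 and 4.00% of CN4 cells. Of 8 fibroblast markers 2 were compared, while 3 were listed in the normalized table of CN4 alone and 0 in that of XN1 alone. Of the 2 compared, *Thy1*, which neurons also express, was at 73.7 and 5.14 CPM (-3.84), and *Col1a2* at 76.7 and 24.3 CPM (-1.66). The *Col1a2* ratio was -0.30 among nondividing and -3.34 among dividing cells. Summed over members listed in both normalized tables, 4 fibroblast markers were at 153 CPM in XN1 and 70.2 CPM in CN4, and 8 neuron markers at 787 and 686 CPM. These sums leave out members listed for CN4 alone, 3 fibroblast and 2 neuron markers.

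Of the Notch pathway and proneural genes compared, all past 2-fold were higher in CN4. Of 20 list members, 3 were listed in the normalized table of CN4 alone and 1 in that of XN1 alone. Of 14 compared, 6 were within 2-fold, 8 were at least 2-fold higher in CN4 and 0 in XN1 (7.01% and 7.6% of all genes compared). The median of 1.28 was the highest of the lists with at least 5 genes compared. The ligand genes *Dll1* (6.28 and 39.4 CPM, 2.65), *Dll3* (2.70 and 26.4 CPM, 3.29) and *Jag1* (16.9 and 47.5 CPM, 1.49) were higher in CN4. So were the modifier *Lfng* (1.45), the effector gene *Hey1* (2.63) and *Id4* (1.5 and 50.2 CPM, 5.06), an inhibitor of proneural factors. *Hes6* was also higher in CN4 (1.11), with a ratio of 0.89 among dividing cells.

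Genes that mark early or late, glia-forming progenitors differed in both directions. *Hmga2*, a chromatin protein of young stem cells, was at 25.6 CPM in XN1 and 407 CPM in CN4 (log2 ratio 3.99) and was captured in 7.63% and 67.9% of cells. The RNA-binding partners *Igf2bp2* (4.88 and 202 CPM, 5.37) and *Igf2bp3* (35.6 and 198 CPM, 2.47) were also higher in CN4, and *Igf2bp1* was captured in 0.0415% of XN1 and 10.6% of CN4 cells. *Nfib*, which promotes gliogenesis, was at 585 and 1450.2 CPM (1.31). *Zbtb20*, a factor of late progenitors and astrocytes, was higher in XN1 (736 and 286 CPM, -1.36). The median of 13 such genes compared was 0.82, against 0.12 over all genes compared. Of the 13, 5 were at least 2-fold higher in CN4 and 1 in XN1 (7.01% and 7.6% of all genes compared). The fifth, *Hmga1* (6.07 and 12.2 CPM, 1.01), was under 2-fold in 8 of 10 other settings.

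**Figure D3:**
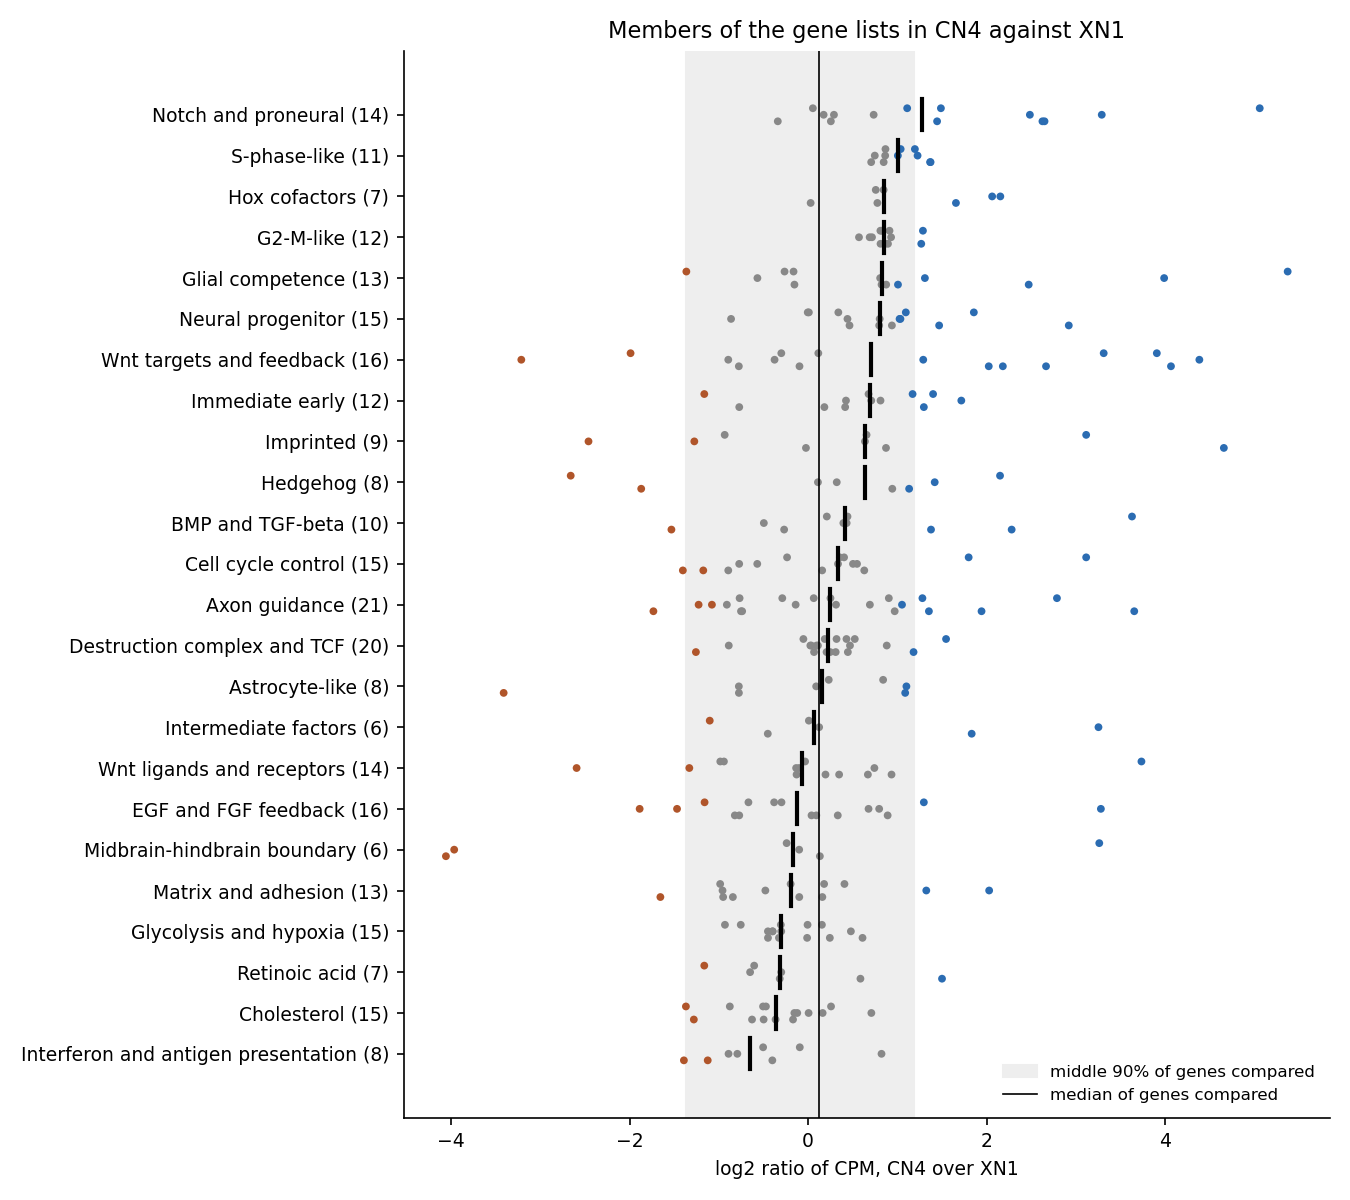
Each row is a gene list with the number of members compared in brackets, each point a member at its log2 ratio of CPM (CN4 over XN1, blue at least 2-fold higher in CN4, brown in XN1, grey within 2-fold), and each black bar the list median. The grey band holds the middle 90% of all genes compared and the vertical line marks their median of 0.12. Lists with few members compared are not shown, and the medians of those shown run from 1.28 (Notch and proneural) to -0.65 (interferon and antigen presentation).

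The share of dividing cells differed between the lines. A cell was called dividing when, thinned to 3200 reads, it held reads of at least 4 of 23 S-phase and G2-M genes. By this count 958 of 3129 XN1 cells were dividing (30.6%, 95% interval 29.0% to 32.3%) and 2067 of 3158 CN4 cells (65.5%, 63.8% to 67.1%). Of 11 S-phase genes 6 were at least 2-fold higher in CN4, among them *Pcna* (158 and 409 CPM, log2 ratio 1.37) and *Mcm4* (70.9 and 183 CPM, 1.37). So were 2 of 12 G2-M genes, *Hmgb2* (1.29) and *Ccnb1* (1.27), and 7.01% of all genes compared. Within the dividing cells, a class defined by these genes, all 23 were within 2-fold, with ratios of 0.54 for *Pcna*, 0.50 for *Mcm4*, 0.29 for *Hmgb2*, 0.26 for *Ccnb1*, -0.10 for *Top2a* and -0.21 for *Mki67*.

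Regulators of the cycle were not uniform. The kinase inhibitor genes *Cdkn1a* (519 and 230.0 CPM, log2 ratio -1.17) and *Cdkn2a* (162 and 61.2 CPM, -1.40) were higher in XN1, and another inhibitor, *Cdkn1c* (8.30 and 72.0 CPM, 3.12), and the kinase *Cdk6* (28.1 and 97.7 CPM, 1.80) were higher in CN4. The *Cdkn2a* locus encodes overlapping products that a gene count does not separate.

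Most calls held within each class of cells. Of the 696 genes higher in CN4, 463 passed 2-fold in nondividing and in dividing cells taken apart and 55 in neither, and of the 754 higher in XN1 the counts were 558 and 51. Of all genes compared, 8.51% were at least 2-fold higher in CN4 in nondividing cells and 5.7% in dividing cells, and 7.11% and 6.58% were higher in XN1. *Axin2* had a ratio of 2.21 in nondividing and 2.23 in dividing cells, *Lgr5* of 3.79 and 2.78, and *Sfrp2* of 3.04 and 1.96. Of 148 genes of the naming rule and lists that passed 2-fold over all cells, those whose ratio was under 2-fold in at least 1 of 10 other settings (other totals, other sets of cells, thinning or centring) were *Abca1*, *Aldoc*, *Amer1*, *Bcas1*, *Ccnb1*, *Cdkn1a*, *Col1a2*, *Dcx*, *Efnb3*, *Gja1*, *Gli3*, *Hes6*, *Hmga1*, *Hmgb2*, *Hoxa4*, *Hoxa5*, *Ier3*, *Irx3*, *Mcm3*, *Mcm4*, *Mcm5*, *Mcm6*, *Mitf*, *Notch1*, *Nrp1*, *Nrp2*, *Pcna*, *Rarg*, *Sox21*, *Sox3*, *Spry4*, *Ung* and *Wnt5a*.

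**Figure D4:**
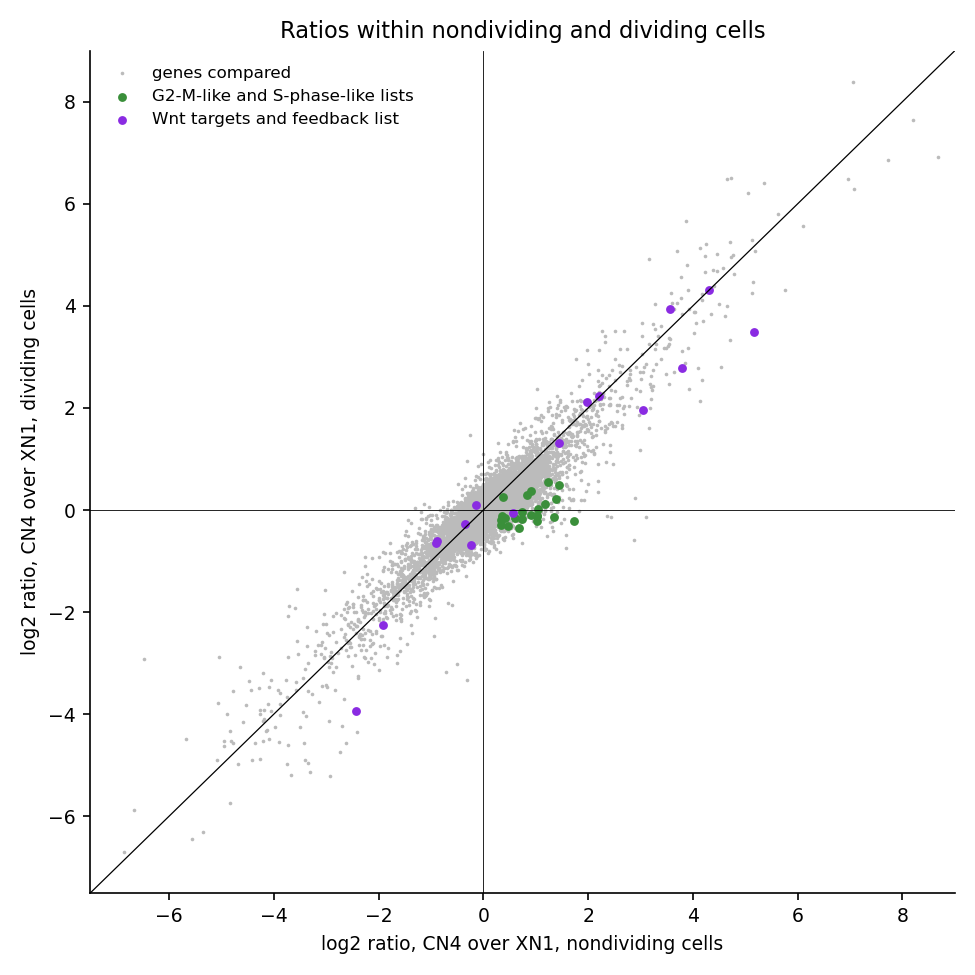
Each point is a gene at its log2 ratio, CN4 over XN1, among nondividing cells (x axis) and dividing cells (y axis), with the diagonal marking equal ratios. Of the Wnt targets and feedback genes (purple) *Axin2* lies near the diagonal and *Dkk3* (5.17 and 3.50) and *Lef1* (-2.43 and -3.93) lie below it, while S-phase and G2-M genes (green), which were used to define dividing cells, lie below it, with *Mki67* at 1.73 and -0.21.

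Genes of the EGF and FGF list, which holds receptor genes as well as induced feedback genes, differed in both directions. Both media held the same factors. *Etv5*, an ETS factor induced by FGF, was at 1087 CPM in XN1 and 294 CPM in CN4 (log2 ratio -1.89), the phosphatase gene *Dusp6* at 967 and 349 CPM (-1.47) and the feedback inhibitor gene *Spry4* at 905 and 405 CPM (-1.16). *Fgfr3* (2.08 and 20.2 CPM, 3.28) and *Fos* (105 and 258 CPM, 1.30) were higher in CN4, and of 16 genes compared 11 were within 2-fold. Immediate early genes, which respond to handling as well as to growth factors, had 4 of 12 compared genes at least 2-fold higher in CN4 (*Fos*, *Fosb*, *Jun* and *Btg2*) and 1 in XN1 (*Ier3*). Of all genes compared, 7.01% were at least 2-fold higher in CN4 and 7.6% in XN1. The *Ier3* ratio was -0.81 among nondividing and -0.70 among dividing cells. In nondividing cells 7 genes of the immediate early list were at least 2-fold higher in CN4 and 0 in XN1 (8.51% and 7.11% of all genes compared).

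Other signalling and surface genes differed by member. For scale, 7.01% of all genes compared were at least 2-fold higher in CN4 and 7.6% in XN1. For BMP and TGF-β genes 3 of 10 compared were at least 2-fold higher in CN4, the ligand gene *Bmp7* (7.58 and 36.8 CPM, log2 ratio 2.28), the receptor gene *Bmpr1b* (2.59 and 32.1 CPM, 3.63) and *Smad7* (1.38), and the receptor gene *Tgfbr2* was higher in XN1 (117 and 40.6 CPM, -1.53). *Bmp5* was captured in 0.145% of XN1 and 50.4% of CN4 cells. Of 7 retinoic acid genes compared, *Rara* was higher in CN4 (1.5) and *Rarg* in XN1 (-1.16), although the *Rarg* ratio was -0.81 among nondividing and -0.66 among dividing cells. Of 21 axon guidance genes 6 were higher in CN4, among them the netrin receptor gene *Dcc* (2.39 and 30.1 CPM, 3.66) and *Epha7* (2.79), and 3 in XN1 (*Sema3c*, *Unc5c* and *Nrp1*). Of 13 matrix and adhesion genes *Ncan* (60.2 and 246 CPM, 2.03) and *Itga6* (1.32) were higher in CN4 and *Sparc* (2275 and 722 CPM, -1.66) in XN1.

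In 3 metabolic and immune lists 4 genes passed 2-fold, all of them toward XN1, where 7.6% of all genes compared passed it. Of 15 cholesterol genes 0 were at least 2-fold higher in CN4 and 2, the sterol sensor gene *Insig1* (619 and 255 CPM, log2 ratio -1.28) and the exporter gene *Abca1* (105 and 40.5 CPM, -1.37), were higher in XN1, and the median was -0.36. The *Abca1* ratio was -0.69 among nondividing and -0.92 among dividing cells. Of 15 glycolysis and hypoxia genes 0 passed 2-fold in either direction and the median was -0.31. Of 8 interferon and antigen presentation genes *Tap1* (-1.39) and *Irf1* (-1.13) were higher in XN1, and the median was -0.65. Among nondividing cells 1 gene of this list was at least 2-fold higher in CN4 and 3 in XN1 (8.51% and 7.11% of all genes compared). Among 9 imprinted genes *Grb10* (2.96 and 74.7 CPM, 4.66) and *Cdkn1c* were higher in CN4, and *Plagl1* (134 and 24.3 CPM, -2.46) and *Peg10* (416 and 172 CPM, -1.28) in XN1.

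Genes with the largest ratios toward CN4 included several for neural adhesion and secreted proteins. The secreted neural protein gene *Nell2* was at 1.66 CPM (1.14 to 2.34) in XN1 and 246 CPM (239 to 252) in CN4 (log2 ratio 7.21), captured in 0.819% and 52.1% of cells, *Sez6l* at 1.61 and 162 CPM (6.66) and the cadherin gene *Cdh11* at 1.40 and 117 CPM (6.38). The synaptic adhesion genes *Lrrtm1* (0.778 and 41.0 CPM, 5.72), *Nlgn3* (0.726 and 37.3 CPM, 5.68) and *Nlgn1* (6.28 and 172 CPM, 4.77) and the neural α-catenin gene *Ctnna2* (1.30 and 34.3 CPM, 4.72) were among the 15 genes with the largest ratios, all of which were at least 25.3-fold higher in CN4. *Lrrtm1* lies within the span of *Ctnna2* on the other strand, so the assignment of reads between them is uncertain. Also among the 15 were *Xist*, *Igf2bp2*, *Nexmif*, *Id4*, *Pcdh9*, *Lhfpl3* and *Grb10*.

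Toward XN1 the largest ratios were held by *Clic5*, a chloride intracellular channel gene (chr17:44188584-44280172), at 422 CPM (413 to 432) in XN1 and 3.57 CPM (2.84 to 4.44) in CN4, a 118-fold difference. *Pou3f1*, a POU factor of the epiblast and of early neural and glial cells, was at 464 CPM in XN1 and 6.41 CPM in CN4 (log2 ratio -6.18), captured in 62.7% and 2.09% of cells. Several of the 15 encode secreted or surface proteins, namely the protease inhibitors *Cst6* (33.8 and 0.436 CPM, -6.28) and *Serpina3n* (40.6 and 1.53 CPM, -4.74), the matricellular gene *Ctgf* (93.8 and 1.44 CPM, -6.03), the cytokine genes *Tslp* (150.5 and 3.18 CPM, -5.56) and *Cxcl1* (176 and 6.23 CPM, -4.82) and the lipopolysaccharide co-receptor gene *Cd14* (98.6 and 3.01 CPM, -5.04). The transcription factor gene *Ebf1* was at 175 and 6.54 CPM (-4.74). The rest were *Atp8b1*, *Lnx1*, *B3galt2*, *Anxa3*, *Plppr4* and *Lin7a*.

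These XN1 genes were not shared in full by the other XAV line. *Clic5* was at 0.578 CPM and *Pou3f1* at 0.506 CPM in XN4, while *Cxcl1* was at 227 CPM, *Ebf1* at 476 CPM and *Anxa3* at 38.6 CPM there. Of the CN4 genes, *Nell2* was at 147 CPM in KN1 and 1.13 CPM in XN4, and *Cdh11* at 5.44 CPM in KN1 and 421 CPM in XN4. Several of the CN4 genes were higher in KN1 than in CN4, among them *Pcdh9* (1671 and 165 CPM), *Nlgn1* (649 and 172 CPM) and *Ctnna2* (590 and 34.3 CPM). Others were lower in KN1, such as *Sez6l* (70.6 and 162 CPM) and *Lrrtm1* (5.12 and 41.0 CPM). *Otx1* and *Otx2* were at 1.16 and 0.457 CPM in XN4, and *Hoxa7* was at 237 CPM in KN1, the value it had in CN4.

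A further 450 genes were listed in the normalized table of XN1 alone and 1121 in that of CN4 alone. Ranked by capture in the normalized table that lists them, the first of the XN1 genes were *Exph5* (in all reads, 66.3% of XN1 and 0.165% of CN4 cells), *Srpx2* (31.5% and 0.127%), *Tmc3* (25.8% and 0.193%), *Otx1* and *Otx2*. The first of the CN4 genes were *Nnat*, an imprinted gene of neural cells (in all reads, 0.152% of XN1 and 74.0% of CN4 cells), *Hoxb8*, *Hoxb9*, *Zic1* and *Hoxb6*. The shares in the line whose table lacks the gene were all under 0.2%.

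For a few genes most single cells of one line had higher values than those of the other. The chance that a CN4 cell has a higher normalized value than an XN1 cell, with ties counted evenly, was 0.972 for *Xist*, 0.945 for *Ptn*, which encodes the growth factor pleiotrophin, 0.945 for *Nrep*, 0.897 for *Tubb2b* and 0.851 for *Fabp7*. At the other end it was 0.0552 for the proteolipid gene *Gpm6b*, 0.0665 for *Igfbp3*, 0.0715 for the ferritin gene *Fth1* and 0.0782 and 0.0797 for the endoplasmic reticulum chaperone genes *Hspa5* and *Calr*. *Igfbp3*, an IGF-binding protein gene, was at 1290.4 CPM in XN1 and 148 CPM in CN4 and was captured in 95.3% and 40.7% of cells. *Fth1* and *Tubb2b* have near-identical copies in the genome, so their read counts are uncertain. A separation of at least 0.8 was reached by 13 genes toward CN4 and 27 toward XN1, or by 6 and 21 after thinning.

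By a score over all genes, nearly every cell lay on the side of its own library. Each cell was thinned to 3200 reads and scored by the mean of log2 weights that had been computed from other cells, those of the tables of all reads that are outside the normalized tables. Those cells are of the same libraries, so differences of library, derivation and dividing share all enter the weights. A separation was therefore likely from the outset, and the cells are not replicates of a condition. By the sign of this score 3062 of 3129 XN1 cells (97.9%) and 3150 of 3158 CN4 cells (99.7%) lay on the side of their own line. The 67 XN1 cells on the CN4 side were all dividing cells, 62 of them held *Igfbp3* reads and 1 held *Xist* reads. The 8 CN4 cells on the XN1 side all held *Xist* reads and 0 were dividing. The normalized tables share 17 cell barcodes, and of these 16 of 17 XN1 cells and 17 of 17 CN4 cells scored on their own side.

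**Figure D5:**
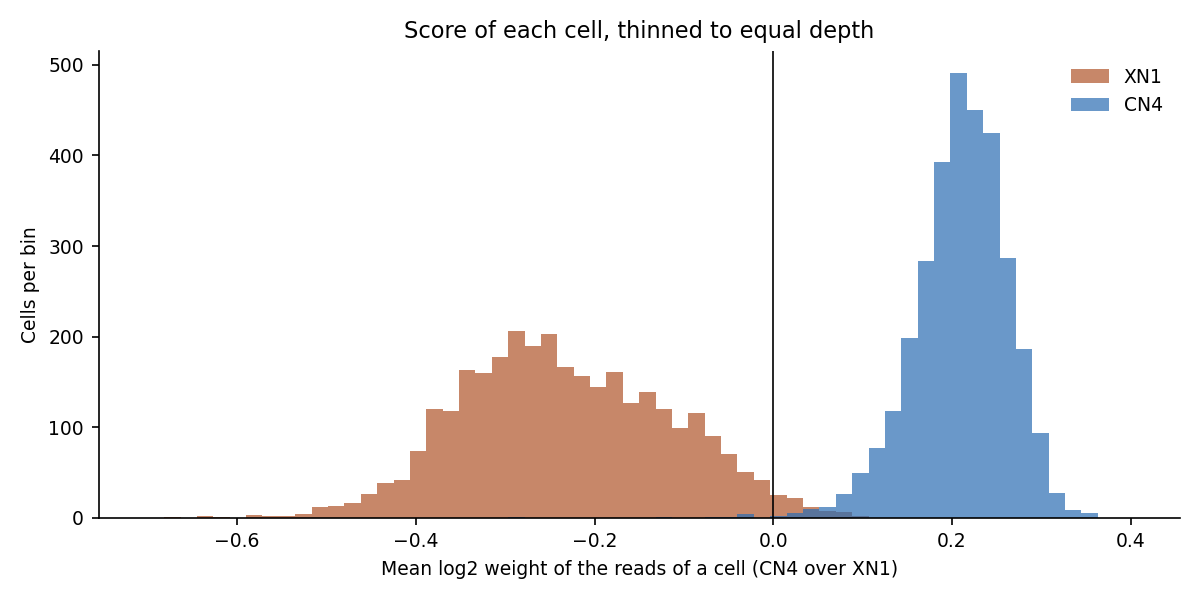
Histogram of the score of each cell, the mean log2 weight (CN4 over XN1) of its reads after thinning to 3200 reads, on the x axis, with the number of cells per bin on the y axis, XN1 in brown and CN4 in blue. The lines form 2 peaks with medians of -0.243 and 0.213 on either side of 0, with 67 XN1 cells and 8 CN4 cells across it.

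*Xist*, the RNA that coats the inactive X chromosome, separated the lines most. It was at 9.24 CPM (7.93 to 10.7) in XN1 and 1591 CPM (1575 to 1607) in CN4, and was captured in 1.31% and 95% of cells. KN1 and XN4 held 2555 and 1836 CPM, so XN1 was the one line of the series with a low level. The antisense gene *Tsix*, which overlaps *Xist*, was captured in 0.0138% of XN1 and 4.43% of CN4 cells, and reads of the pair cannot be told apart where strand is not used. Over 366 X-linked genes the median log2 ratio was 0.15, inside the range of 0.07 to 0.19 of the autosomes.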

How the data were processed

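Single-cell RNA sequencing of the lines was analysed from the deposited tables. The authors aligned BD Rhapsody WTA reads to mm10 (GRCm38). Per the file headers, the deposited tables of all reads hold read counts per gene and cell from pipeline 1.12.1 with GENCODE M19 annotation and intronic reads. The authors then left out ribosomal protein and mitochondrial genes and drew cells at random, the same number from each line. The normalized tables hold fewer cells than that number (3905 for XN1 and 3448 for CN4), and the paper does not describe the step that removed cells. Normalized values were deposited as the natural log of 1 plus reads per 10000 in the cell (Seurat 4.3.0, submitters' processing notes).

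Whole reads were recovered from 100% of the normalized values (tolerance 0.01), summed per line and scaled to CPM. Genes captured in at least 5% of the cells of a line were compared at a 2-fold threshold. With 1 library per line no test was run. Where thinning is named, cells were thinned to 3200 reads, and all other shares are unthinned. Thinning left out 776 XN1 and 290 CN4 cells of the normalized tables, and 1218 and 306 of the tables of all reads. No doublet caller was run. Positions are from GENCODE on GRCm38.

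Named genes are the 15 largest ratios per direction among genes captured in at least 10% of cells of the higher line, leaving out 1 symbol of the Gm or Rik form per direction, the 5 with the farthest separation, the first 5 listed in 1 table, and members of 38 gene lists. A few genes that meet this rule are not reported here. The members, lists and thresholds were chosen with earlier results of these data known. Python 3.11.15, NumPy 2.4.6, SciPy 1.17.1 and pandas 2.3.3 were used, and scripts were tested on simulated data.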

Additional observations from a re-analysis of the deposited data

How the results depend on the processing

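The counts of genes at least 2-fold apart, 696 higher in CN4 and 754 higher in XN1, moved most with the filter and the fold. With no filter on capture they were 1090 and 1349, at 1.5-fold 1866 and 1403, and at 4-fold 186 and 254. Under the other settings (all reads with 2 sets of totals, means over cells, thinning, no deepest cells, centring, totals without the 50 most abundant genes, each cell class, a 10% capture filter, and, chosen after seeing the data, no shared barcodes) they ran from 523 to 823 and from 570 to 884. Of 1480 log2 ratios of 148 named genes under 10 settings, 0 changed direction, and 33 genes fell under 2-fold in at least 1 setting. These genes were taken because they passed 2-fold in the main setting, and all settings reuse the same libraries. A change of direction was therefore unlikely from the outset. The dividing share, 30.6% in XN1 and 65.5% in CN4, was 34.4% and 71.5% at 3 of 23 genes and 24.7% and 54.6% at 6, also chosen after seeing the data. No paired analysis was possible because each line is 1 library and no result comes from a test. At this depth a gene with reads in 0 of 14452 XN1 cells may still be captured in up to 0.0208% of them, a limit set at 3 counts.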
